A study of Mus musculus with 16 samples.

Results

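Interferon-stimulated genes were examined as a group of 42 genes taken by gene symbol from the deposited table of normalized counts. Of these, 41 were in the table of 15156 genes and Mx2 was not analysed here. All 41 passed the filter on low values (10 normalized counts or more in 4 or more libraries), which kept 14220 genes. The libraries came from whole pancreas of mice, 16 in total and 4 in each of 4 genotype groups that the labels describe as independent biological replicates. DMC mice carried Daxxfl/flMen1fl/flPdx1-CreTg, MC mice Men1fl/flPdx1-CreTg and DC mice Daxxfl/flPdx1-CreTg. WT mice are labelled wild type, and their labels name neither a floxed allele nor a Cre transgene. Every mouse, WT included, had received caerulein, a cholecystokinin analogue that injures acinar cells and gives chronic pancreatitis on repeated dosing. Adult mice of 6 to 10 weeks were injected intraperitoneally 4 times, an hour apart, at 50 ug/kg on 3 days of each of 3 weeks, and tissue was taken 5 days after the last dose. Pdx1-Cre acts in the pancreatic epithelium, so other cells of the tissue are expected to keep their floxed genes, and pancreas without caerulein was not analysed here. With no Cre in the WT labels, Cre itself and the loss of a gene cannot be told apart in comparisons with WT.

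The libraries held 13481063 to 23728309 reads, recovered from the normalized counts. A count of 3 reads, the limit that a count of 0 allows, corresponds to 1.84 to 5.30 normalized counts, which covers counting error only. The 13 acinar markers took 31.8% to 38.8% of the counts in DMC libraries, 31.1% to 40.5% in MC, 28.6% to 39.0% in DC and 37.6% to 46.8% in WT. Men1 averaged 168 ± 10.6 normalized counts in DMC, 132 ± 13.3 in MC, 482 ± 61.9 in DC and 368 ± 61.3 in WT libraries (SD, n = 4 each), and it fell in DMC and in MC against WT (limma adjusted p = 0.000713 and 6.16e-05). Daxx averaged 182 ± 30.4 in DMC, 246 ± 26.1 in MC, 223 ± 15.6 in DC and 263 ± 65.0 in WT libraries. Daxx did not pass the test in DC against WT (log2 difference -0.21, adjusted p = 0.683), all 4 DC libraries lay inside the WT range, and its count in whole tissue therefore does not check the DC label.

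Interferons are secreted when cells sense foreign or misplaced nucleic acids. Type I and type III interferons signal through JAK kinases to a complex that holds STAT2 and IRF9 and binds the interferon-stimulated response element (ISRE), while interferon gamma acts through the gamma-activated site (GAS). The induced genes encode sensors, the signalling factors themselves, the ISG15 modification system, antiviral effectors and guanylate-binding or immunity-related GTPases, and they are known to act in immune, epithelial and stromal cells of inflamed tissue alike.

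Across the members the MC libraries had the highest mean level, and the spread between libraries was wide in DMC and WT. The member level of a library is the mean over the 41 members of log2(normalized count + 1), less the mean of that value over the 16 libraries. It was -0.33, 0.76, -0.67 and -0.21 in DMC replicates 1 to 4, 0.69, 0.67, 0.08 and 0.90 in MC, -0.17, -0.05, 0.08 and -0.19 in DC, and -1.50, -0.08, 0.89 and -0.86 in WT. The mean was -0.11 ± 0.61 in DMC, 0.59 ± 0.35 in MC, -0.09 ± 0.12 in DC and -0.39 ± 1.03 in WT (SD, n = 4 each). The WT libraries spanned the whole range, with the lowest level of all 16 in WT-1 and a level beside the highest MC library in WT-3. The median SD of a member within its group was 0.58 in DMC, 0.35 in MC, 0.30 in DC and 0.98 in WT on the log2 scale, against 0.25, 0.24, 0.28 and 0.26 over all genes tested. The DC libraries were about as even in these genes as in all genes, and the other 3 groups less so.

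**Figure D1:**
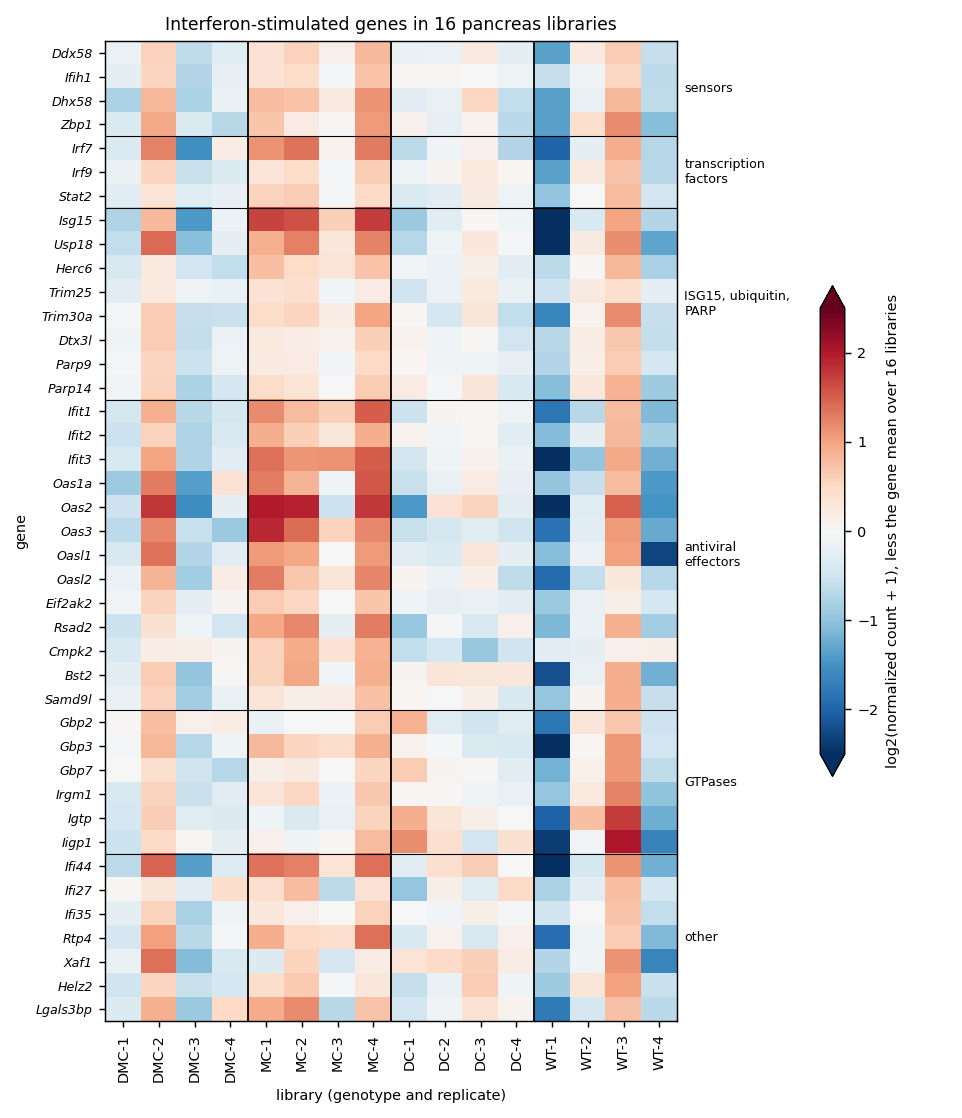
Colours give log2(normalized count + 1) of each of 41 members (rows, by role) less its mean over 16 libraries (columns, by genotype and replicate); values past the ends of the scale take the end colours. MC columns are mostly red with MC-3 paler, DC columns are near white, and the WT group runs between a blue WT-1 and a red WT-3.

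Single libraries carried much of that spread. WT-1 was the lowest WT library for 34 of 41 members, against 28.7% of all genes tested, and the lowest of all 16 for 32. WT-3 was the highest of its group for 40 members, against 29.7% of all genes. DMC-2 was the highest DMC library for 40 members, against 26.0%, and MC-3 the lowest MC library for 36, against 24.4%. In 8 members DMC-2 alone held over 50% of the summed counts of the DMC group, and in 18 members WT-3 did so in the WT group, while no MC or DC library did. Over all genes tested, 1 library held that share in 3.1% of genes in DMC, 2.61% in MC, 4.75% in DC and 5.34% in WT. The highest share was that of Iigp1, a GTPase recruited to pathogen vacuoles, with 73.7% of the WT counts in WT-3. For Oas2, a double-stranded RNA sensor that makes 2'-5' oligoadenylates, DMC-2 held 64.6% of the DMC counts and WT-3 held 69.5% of the WT counts. The other members with such a library were Irf7, Usp18, Oas1a, Oas3, Oasl1, Ifi44 and Xaf1 in both groups, and Zbp1, Isg15, Trim30a, Ifit1, Ifit3, Bst2, Gbp3, Irgm1 and Igtp in WT.

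The median fold between the highest and the lowest library of a group was 2.58 in DMC, 1.75 in MC, 1.58 in DC and 4.75 in WT. The widest was that of Oas2 in WT, at 33.8-fold, with 23.0, 222, 777 and 96.6 normalized counts in replicates 1 to 4. The narrowest in WT was that of Cmpk2, at 1.36-fold.

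Markers of other cells moved with some of these libraries. The 13 T and NK cell markers in the table summed to 172 to 1187 normalized counts in DMC libraries, 168 to 907 in MC, 143 to 654 in DC and 101 to 2688 in WT. Their mean log2 level was highest in WT-3 and WT-2, at 6.81 and 6.31, then in DMC-2 at 5.88 and MC-3 at 5.54, and lowest in WT-1 at 2.70. The 9 B and plasma cell markers in the table summed to 810 to 5431 in DMC, 409 to 1790.0 in MC, 1751 to 3738 in DC and 870 to 9094 in WT. WT-3 and DMC-2 thus had high member levels with high lymphoid markers, MC-3 the lowest MC member level with the highest MC lymphoid markers, and WT-1 low values of both. WT-2, next to WT-3 in both lymphoid lists, had a member level of only -0.08. The mean log2 level of the acinar markers, less its mean over 16 libraries, was -0.16, -0.595, 0.33 and -0.24 in DMC replicates 1 to 4. It was 0.26, 0.30, 0.08 and -0.58 in MC, -0.97, 0.16, -0.22 and 0.26 in DC, and 0.76, -0.04, -0.003 and 0.65 in WT. WT-1 and WT-4, with the lowest member levels, had the highest acinar levels. DC-1, with the lowest acinar level, had a member level of -0.17. The 13 macrophage and monocyte markers summed to 9080.0 to 15230.0 in DMC, 7271 to 13420.0 in MC, 7398 to 19120.0 in DC and 4333 to 13500.0 in WT, and were lowest in WT-1. No marker of these lists was at 0 in all 4 libraries of a group. In libraries of whole tissue, more cells of a type and more RNA per cell cannot be told apart, and the part of the macrophage markers in the member levels was not tested. With the lymphoid level as a covariate the member median was 1.36 between MC and WT, against 0.75 without it.

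Plasmacytoid dendritic cells, the main producers of type I interferon among blood cells, were represented by 9 markers. One of them, Klk1, is also an abundant pancreatic kallikrein and made up 94.5% to 99.2% of their sum. Without it the sum was 1208 to 1729 in DMC, 1185 to 1471 in MC, 1107 to 2047 in DC and 1199 to 2501 in WT libraries. Siglech, their surface lectin, had 33.7, 85.9, 27.4 and 32.9 normalized counts in DMC, 24.5, 23.8, 93.0 and 26.1 in MC, 41.01, 29.0, 68.4 and 22.0 in DC, and 3.54, 69.6, 186 and 39.5 in WT. MC-3, the lowest MC library in member level, had the highest Siglech count of its group, while WT-3 had the highest of all 16. Between MC and WT, log2 differences were above 0 for all 6 duct markers (median 0.45), all 7 fibroblast and stellate markers (0.50), 12 of 13 macrophage and monocyte markers (0.46) and 5 of 6 tested neutrophil markers (0.95), and below 0 for all 9 B and plasma cell markers (-2.52) and 10 of 12 tested T and NK cell markers (-0.97). They were also below 0 for 8 of 9 plasmacytoid dendritic cell markers (-0.41) and 12 of 13 acinar markers (-0.35). None of these markers passed the test. Between MC and DC the medians were 0.47 for duct, -0.35 for fibroblast and stellate, 0.02 for macrophage and monocyte, -0.21 for neutrophil, -1.22 for B and plasma cell and 0.13 for T and NK cell markers. They were -0.23 for plasmacytoid dendritic cell and 0.28 for acinar markers. The duct markers summed to 6215 to 8611 in DMC, 5399 to 7916 in MC, 4879 to 6387 in DC and 3707 to 7514 in WT libraries. The fibroblast and stellate markers summed to 22810.0 to 38020.0 in DMC, 29450.0 to 49270.0 in MC, 32970.0 to 65910.0 in DC and 22150.0 to 26260.0 in WT libraries, and the neutrophil markers to 132 to 206 in DMC, 156 to 328 in MC, 147 to 1586 in DC and 90.2 to 160.0 in WT libraries. Y-linked genes were high in 2 DMC, 2 MC, 1 DC and 2 WT libraries and near 0 in the rest, apart from DMC-2. Their mean log2 level was 1.88 in DMC-2, against 9.40 in DMC-1, 9.14 in DMC-3 and 0.47 in DMC-4. The part of the acinar, plasmacytoid, duct, fibroblast and neutrophil markers was not tested, and with the Y-linked level as a covariate 1 member passed between MC and WT.

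**Figure D2:**
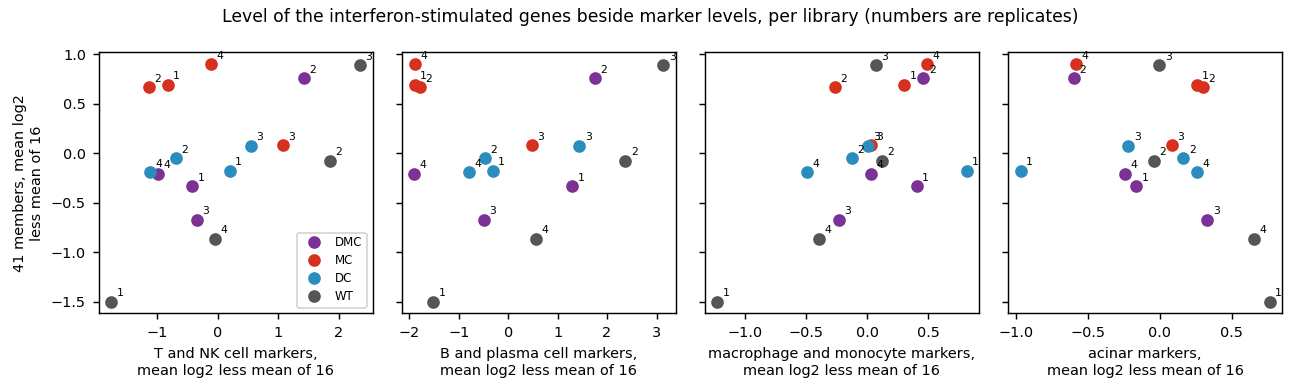
Each point is a library, with the level of the 41 members on the vertical axis and the mean log2 level of a marker list on the horizontal axis, both less their mean over 16 libraries; numbers are replicates. MC replicates 1, 2 and 4 are high in members with T and NK cell and B and plasma cell markers below their mean, while WT-3 and DMC-2 are high in both.

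Between MC and WT, the comparison that asks what loss of Men1 in the pancreatic epithelium goes with, all 41 members had a log2 difference above 0, against 47.1% of all genes tested. The median was 0.75, with a range of 0.16 to 2.30, and the median of all genes was -0.02. The member median was lower by edgeR (0.54, with 38 members above 0) and by DESeq2 (0.57, with 39). With library quality weights it was 0.59, with 40 above 0. No member passed the test over all genes at an adjusted p of 0.05 (limma), where 0.781% of all genes were called and 0.485% of all genes were called higher. At an unadjusted p under 0.05 there were 23 members, all higher in MC, which compares with 7.51% of all genes in that direction. That count was 37 without WT-3, 11 without WT-1 or without WT-4, 14 without MC-2 and 13 without MC-4, and it was 11 by edgeR. Over all 14220 genes, in either direction, the count under these settings ran from 1399 to 2093, and without WT-3 it was 1505. The smallest adjusted p of a member was 0.0573. DESeq2 on the recovered reads called 4 members, Oasl2, Cmpk2, Eif2ak2 and Ifit3, among 243 genes higher and 148 lower of 14202, and edgeR's quasi-likelihood test called 0 members, with 69 genes higher and 42 lower of 14220. In 3 members, Ifit3, Oasl2 and Cmpk2, every MC library lay above every WT library, against 4.16% of all genes.

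That difference depended on which WT libraries were used. Without WT-3 the median was 1.18 and 5 members passed, namely Oasl2, Oas3, Ifit1, Ifit2 and Ifit3, among 38 genes called higher and 24 lower; without WT-1 the median was 0.45 and no member passed. Without WT-2 and WT-3, the WT libraries with the highest lymphoid markers, it was 1.63 and 17 members passed, among 63 genes higher and 23 lower. WT-2 and WT-3 also had the highest member levels of the WT group. Leaving them out therefore raises the difference from WT by itself, and the 17 are no independent check. Without WT-1 and WT-3, the lowest and the highest for these genes, a pair chosen after seeing the data, it was 0.88 and Ifit3 passed, among 13 genes higher and 8 lower. With the level of lymphoid markers as a covariate 14 members passed, among 105 genes higher and 53 lower. All 41 members were above 0 without WT-3 and without either pair of WT libraries, and 39 without WT-1.

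The comparison of MC with DC gave the only call among the members, and 30 of 31 alternatives kept it. Between MC and DC, 38 of 41 members were above 0 and the median was 0.65 (range -0.40 to 1.72), while the median of all genes was -0.000149, and 50.0% of genes were above 0. Only Cmpk2 passed the test over all genes, where 1.37% of all genes were called and 0.591% of all genes were called higher. At an unadjusted p under 0.05 there were 10 members, all higher in MC, against 6.67% of genes in that direction. That count was 16 without WT-1, 17 without MC-3 and 5 without MC-4, where 1777 to 2024 of all 14220 genes had such a p in either direction. In 13 members every MC library lay above every DC library, against 4.65% of all genes: Isg15, Usp18, Herc6, Ifit1, Ifit2, Ifit3, Oas3, Oasl2, Eif2ak2, Cmpk2, Samd9l, Gbp3 and Rtp4. The 3 members below 0 were Iigp1, Igtp and Xaf1.

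A clock difference accompanied that comparison. The level of clock genes of the high phase less that of the low phase was -0.68 to 3.47 in DMC, -0.79 to -0.18 in MC, 2.13 to 3.59 in DC and -0.48 to 2.28 in WT libraries on the log2 scale, so MC and DC libraries did not overlap in it. With that level as a covariate the member median between MC and DC was 1.58, Cmpk2 had a log2 difference of 1.30 (adjusted p = 0.234, within 1.69e-09 to 0.234 over 31 alternatives), and no member passed.

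The DMC libraries, with Men1 and Daxx both targeted, had lower means than the MC libraries for nearly all members, without a call. Between DMC and MC, 40 of 41 members were below 0, against 48.9% of all genes, with a median of -0.62 (range -1.79 to 0.15) and a median over all genes of 0.01. No member passed the test, and a single gene did among all tested (0.00703%). At an unadjusted p under 0.05 there were 10 members, all lower in DMC, against 2.38% of genes in that direction, and edgeR and DESeq2 called 0 members. That count was 24 without DMC-2, 16 without MC-3, 6 without DMC-1 and 5 without DMC-3. Over all 14220 genes, in either direction, it was 761, 1017, 549 and 987 in the same order. In 3 members, Herc6, Ifit3 and Cmpk2, every DMC library lay below every MC library, against 1.86% of genes. Without DMC-2 the median was -0.83, and without DMC-3 it was -0.47. The interaction of both losses is the DMC level less MC and DC plus WT. It was below 0 for all 41 members, against 47.9% of genes, with a median of -0.82 against 0.02 over all genes. Only the WT labels name no Cre, so an effect of Cre itself cannot be told apart from this interaction. No member and no gene passed (0.0%), while 8 members had an unadjusted p under 0.05, against 4.61% of genes in that direction. The 8 became 31 without WT-3, 20 without DMC-2, 15 without MC-3, 5 without WT-4, 4 without WT-1 and 3 without DMC-3, and 1 by edgeR and 3 by DESeq2. Over all genes tested, in either direction, the count under these settings ran from 933 to 1343, and without WT-3 it was 1231. The interaction median was -1.27 without WT-3 and -0.54 without WT-1.

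In the other 3 comparisons the member medians lay nearer 0 and turned sign when 1 library was left out. Between DMC and WT 34 members were above 0, against 47.3% of all genes, with a median of 0.15. By edgeR 23 of 41 members were above 0, and by DESeq2 24. No member passed (0.788% of genes called; edgeR and DESeq2 called 0), and 0 had an unadjusted p under 0.05, against 12.5% of genes. The groups overlapped for all 41 members, while 5.19% of genes lay higher and 3.02% lower without overlap. That median was -0.15 without WT-1 and 0.60 without WT-3, where 11 members and 1564 of all 14220 genes had an unadjusted p under 0.05. Between DC and WT 37 were above 0, against 47.3% of all genes, with a median of 0.22. By edgeR only 15 of 41 members were above 0, and by DESeq2 20. No member passed (0.0211% of genes called, and 0 members by edgeR and DESeq2). Cmpk2 alone had an unadjusted p under 0.05, lower in DC (4.24% of genes), and alone did not overlap (1.77%). The DC median was -0.11 without WT-1 and 0.63 without WT-3, where 13 members and 1844 of all 14220 genes had an unadjusted p under 0.05. Igtp and Iigp1 passed without WT-2 and WT-3, among 28 genes higher and 13 lower. Between DMC and DC 22 were above 0, against 50.6% of all genes, with a median of 0.02 and no member past the threshold (0.534% of genes called). DESeq2 called Cmpk2 there, among 186 genes higher and 159 lower of 14202, and edgeR called 0 members. Cmpk2 alone had an unadjusted p under 0.05, higher in DMC (7.21% of genes), and alone did not overlap (3.55%), and without DMC-2 the median was -0.35.

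**Figure D3:**
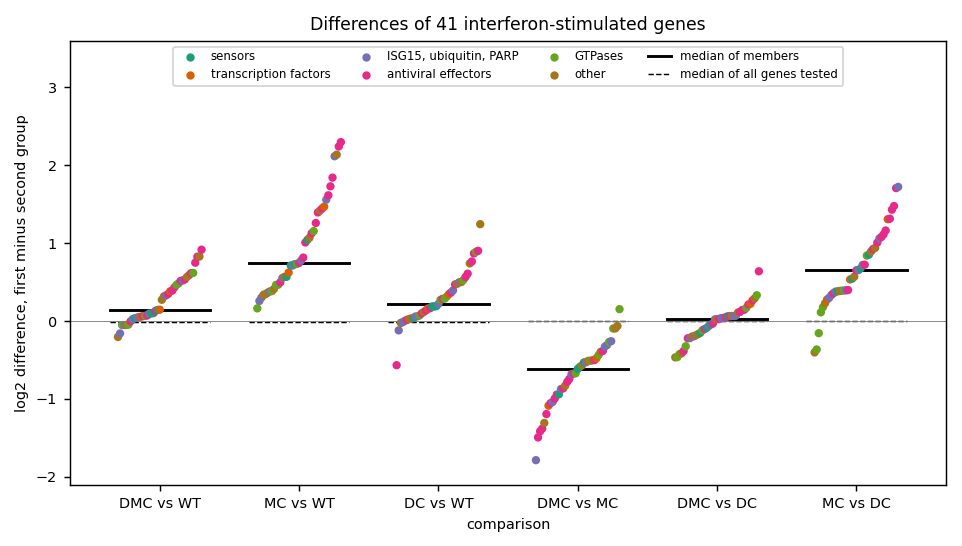
Each point is a member's log2 difference (vertical axis, first minus second group) in 1 of 6 comparisons, coloured by role and sorted by size; solid lines are medians of the 41 members and dashed lines medians of all 14220 genes tested. All points lie above 0 between MC and WT, and 40 of 41 lie below 0 between DMC and MC.

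**Figure D4:**
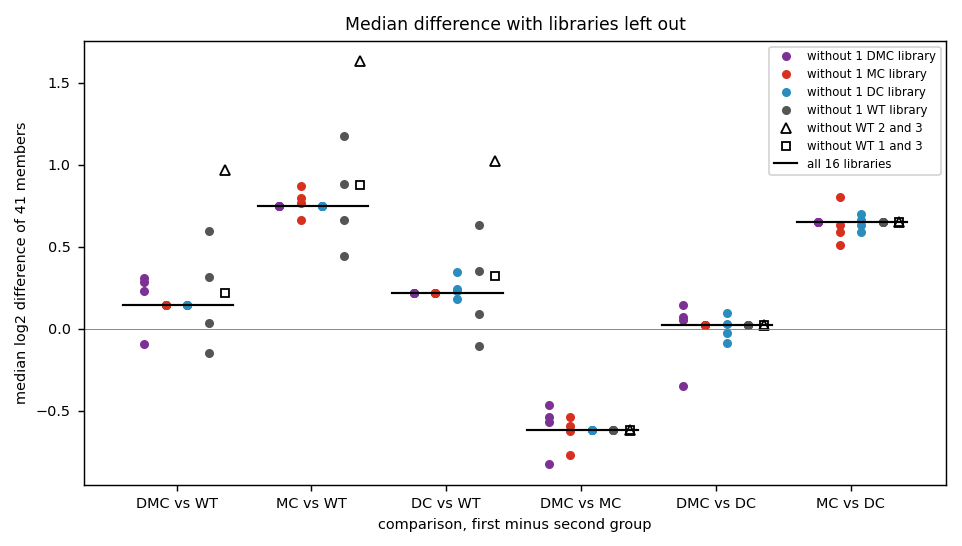
The vertical axis gives the median log2 difference of the 41 members with all 16 libraries (line) and with libraries left out (points, by the group that lost a library; open symbols, 2 WT libraries left out). Medians between MC and WT stay above 0 but run over 0.45 to 1.63, those between MC and DC over 0.51 to 0.80, and those between DMC and WT, DC and WT, and DMC and DC cross 0.

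Among the sensors, the RNA helicase Ddx58 (RIG-I) had 446, 739.6, 320.04 and 403 normalized counts in DMC, 632, 738, 541 and 867 in MC, 439, 449.7, 575 and 425 in DC, and 196, 579, 765 and 329 in WT libraries. The MC and WT ranges overlapped, with WT-1 below the rest, and the log2 difference was 0.73 ± 0.34 (SE; limma adjusted p = 0.379). Ifih1 (MDA5), which binds long double-stranded RNA, had 346, 589, 246 and 351 in DMC, 521, 560.4, 396 and 665 in MC, 416, 416, 411 and 375 in DC, and 272, 385, 587 and 258 in WT libraries. Its DC libraries lay within a 1.11-fold range, while those of each other genotype ran over a wider range. Of the 4 sensors, which include Dhx58 and Zbp1, all were above 0 between MC and WT with a median of 0.72, and all were below 0 between DMC and MC with a median of -0.60.

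Irf9 and Stat2, subunits of the ISRE-binding complex, varied within the WT group more than between the means of the groups. Irf9 had 461, 750.4, 354 and 411 normalized counts in DMC, 649, 719, 512 and 791 in MC, 483, 548, 619 and 535 in DC, and 205, 608, 847 and 317 in WT libraries. Stat2 had 429, 650.2, 414 and 446 in DMC, 762, 791, 496 and 714 in MC, 400.3, 429, 602 and 469 in DC, and 259.9, 511, 888 and 374 in WT libraries. In both, WT-3 was the highest and WT-1 the lowest of all 16. Irf7, which drives the late phase of interferon induction, had a log2 difference of 1.47 between MC and WT, the largest of the 3 factors. Reads of Irf9 and of Irf7 overlap Rnf31 and, on the opposite strand, Phrf1, and how such reads were counted is not given in the sources used here.

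In the ISG15 system, which tags proteins with a ubiquitin-like modifier, Isg15 itself had 23.7, 71.7, 14.4 and 36.6 normalized counts in DMC, 134, 124, 61.7 and 139 in MC, 20.8, 33.2, 42.2 and 37.4 in DC, and 5.30, 30.7, 81.6 and 24.2 in WT libraries. The WT-1 value is 3 reads, and MC libraries lay above all DC libraries but overlapped DMC and WT. The log2 difference was -1.79 ± 0.62 between DMC and MC, the largest of any member there, and did not pass (SE; limma adjusted p = 0.666). Herc6, the main ISG15 ligase of mice, had 114, 179.98, 108 and 97.8 in DMC, 256, 208, 188 and 248 in MC, 144, 136, 166 and 123 in DC, and 95.5, 154, 269 and 85.6 in WT libraries. All 4 MC libraries lay above all DMC and all DC libraries, with a log2 difference of -0.87 ± 0.29 between DMC and MC (limma adjusted p = 0.612; exact permutation p = 0.0286, two-sided, the smallest that 4 against 4 allows). Usp18, which removes ISG15 and damps the type I receptor, had a WT range of 15.9 to 238.

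Trim25, a ubiquitin ligase of the RIG-I pathway, had the smallest difference of its role between MC and WT. It had 733, 1037, 806 and 779 normalized counts in DMC, 1127, 1178, 839 and 1011 in MC, 615, 793, 1033 and 784 in DC, and 613, 1023, 1169.95 and 749.97 in WT libraries, and its difference between MC and WT was 0.26 ± 0.20 on the log2 scale (SE; limma adjusted p = 0.62). Parp14, an ADP-ribosyltransferase, had 811, 1261, 489.9 and 629 in DMC, 1165, 1073, 836 and 1311 in MC, 974, 816, 1047 and 653 in DC, and 405, 1033, 1544 and 457 in WT libraries, with no group standing apart. Of the 8 members of this role 3 had an unadjusted p under 0.05 between MC and WT, all higher in MC (7.51% of all genes), with a median of 0.63. Dtx3l and Parp9 overlap on opposite strands, so reads of the pair may not be separable.

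The antiviral effectors had the largest median difference of the 6 roles between MC and WT and between DMC and WT. The same held between MC and DC and between DMC and MC. It did not hold between DC and WT or between DMC and DC. Of 13 measured, 12 had an unadjusted p under 0.05 between MC and WT, higher in MC (7.51% of all genes), and the median log2 difference was 1.40, against 0.41 to 0.72 in the other 5 roles. Between MC and DC the median was 1.08, and in 8 of the 13 every MC library lay above every DC library (4.65% of all genes). Between DMC and MC it was -0.95. Whether the effectors differ from the other roles was not tested.

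The ISRE core (GAAA, any 2 bases, GAAA) was looked for on both strands in the 250 bases before the start of each gene in RefSeq promoters (GRCm38.p6), of which 32 members were matched. It was present in 14 of the 32 (43.8%), against 3.46% of 27025 genes with a promoter in that table. The GAS core (TTC, any 3 bases, GAA) was present in 6 of the 32 (18.8%), against 8.13% of genes. Stretches of 6 members are shown. Ifit1, Ifit3, Isg15 and Oas3 hold an ISRE core and are among the members with the largest differences. Igtp, with the smallest difference of any member between MC and WT (0.16), holds a core as well and is not shown. Cmpk2 gave the only call, and its neighbour Rsad2 did not pass. In capitals are the core matches, with their reverse complement on the other strand, and overlapping matches run together. The stretches read along each gene's own strand. They lie at chr19:34640765-34640833 (plus strand), chr19:34583353-34583436 (plus), chr4:156200855-156200916 (minus), chr5:120777705-120777754 (minus), chr12:26456543-26456592 (minus) and chr12:26469104-26469203 (plus), all before the annotated start of the gene.
Ifit1: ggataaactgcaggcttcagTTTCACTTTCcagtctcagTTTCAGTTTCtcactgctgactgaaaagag
Ifit3: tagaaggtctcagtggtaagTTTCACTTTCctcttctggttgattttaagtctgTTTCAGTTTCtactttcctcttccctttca
Isg15: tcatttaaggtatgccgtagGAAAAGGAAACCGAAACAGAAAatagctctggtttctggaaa
Oas3: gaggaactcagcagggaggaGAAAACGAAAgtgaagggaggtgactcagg
Rsad2: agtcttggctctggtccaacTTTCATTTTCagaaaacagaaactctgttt
Cmpk2: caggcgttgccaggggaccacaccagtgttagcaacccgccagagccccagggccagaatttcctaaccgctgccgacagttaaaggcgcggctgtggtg

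Ifit1 and Ifit3 each hold 2 separate core matches, Isg15 a run of 3 overlapping ones, and Oas3 and Rsad2 1 each. The Cmpk2 stretch, the 100 bases before its start, and the rest of its window hold neither core, and the windows of Oasl2, Eif2ak2 and Ifi44 hold no ISRE core. Ifi44 is not shown, though its log2 difference of 2.14 between MC and WT was above those of Isg15, Oas3 and Ifit1. Between MC and WT the 14 members with an ISRE core had a median log2 difference of 1.14 (range 0.16 to 2.30) and the 18 without 0.72 (range 0.26 to 2.14). Between MC and DC the medians were 0.78 and 0.56, and between DMC and MC -0.71 and -0.55. A match is a string of letters in this window, and no match says nothing of sites elsewhere.

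Cmpk2, a mitochondrial nucleoside monophosphate kinase that supplies pyrimidine nucleotides for mitochondrial DNA synthesis, gave the only call. It had 171, 255, 252 and 235 normalized counts in DMC, 333, 429, 287 and 413 in MC, 146, 165, 115 and 157 in DC, and 184, 188, 245 and 250.4 in WT libraries. Every MC library lay above every library of the other 3 genotypes, and every DC library lay below them, while DMC and WT overlapped. Cmpk2 rose 2.49-fold in MC against DC (log2 difference 1.31 ± 0.18 SE, 95% interval 0.94 to 1.69, limma adjusted p = 0.00192; exact permutation p = 0.0286, two-sided). Against WT it did not pass in MC (0.75 ± 0.18, limma adjusted p = 0.0573) or in DC (-0.57 ± 0.18, adjusted p = 0.22). DMC lay between, at -0.68 ± 0.18 against MC (adjusted p = 0.337) and 0.64 ± 0.18 against DC (adjusted p = 0.126). WT-1 had the lowest Cmpk2 count of the WT group, at 184, and WT-4 the highest, at 250.4, so neither stood apart.

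Cmpk2 (chromosome 12, 26469204 to 26479837, plus strand, GRCm38) lies head to head with Rsad2 (26442746 to 26456452, minus strand), which encodes viperin, an antiviral radical SAM enzyme, and 12752 bases separate their starts. Rsad2 had 125, 238, 169 and 129.8 normalized counts in DMC, 355, 422, 156 and 445 in MC, 94.3, 179, 140.2 and 198 in DC, and 83.1, 163, 336 and 98.8 in WT libraries. MC-3 lay among the DC libraries for Rsad2 and not for Cmpk2, and WT-3 stood above the other WT libraries for Rsad2 and not for Cmpk2.

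Ifit3 (chromosome 19, 34583531 to 34588731), a tetratricopeptide protein that binds other IFIT proteins on foreign RNA, had the largest difference of any member between MC and WT. It had 120.2, 309.9, 92.7 and 128 normalized counts in DMC, 407, 335, 339.6 and 449.8 in MC, 113, 146, 169 and 139.8 in DC, and 21.2, 77.8, 301 and 67.0 in WT libraries. All MC libraries lay above all others, WT-3 and DMC-2 being nearest. The log2 difference was 2.30 ± 0.55 between MC and WT (limma adjusted p = 0.0575), 1.43 ± 0.55 between MC and DC (adjusted p = 0.243) and -1.38 ± 0.55 between DMC and MC (adjusted p = 0.78), with an exact permutation p of 0.0286 in each. Its near-identical neighbour Ifit3b, with 105 ± 23.1 in MC and 31.4 ± 25.3 in WT libraries (SD, n = 4 each), may share reads with it.

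Oasl2, a ubiquitin-like relative of the oligoadenylate synthetases, had 196, 392, 119 and 245 normalized counts in DMC, 526, 348, 268 and 508 in MC, 228, 195, 243 and 139.8 in DC, and 56.6, 142, 260.3 and 132 in WT libraries. Every MC library lay above every WT library, with MC-3 and WT-3 nearly level, and the log2 difference was 1.61 ± 0.41 (SE; limma adjusted p = 0.0751). Eif2ak2 (PKR), which stops translation on binding double-stranded RNA, had 447, 691, 401 and 493 in DMC, 727, 675, 473 and 766 in MC, 435, 406, 419 and 393 in DC, and 246, 414, 522 and 347 in WT libraries. All MC libraries lay above all DC libraries, the DC libraries were close together, and MC overlapped WT only through MC-3 and WT-3. Its log2 difference was 0.82 ± 0.21 between MC and WT (SE; limma adjusted p = 0.0877) and 0.65 ± 0.21 between MC and DC (adjusted p = 0.162).

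Bst2 (tetherin), which holds budding virus at the cell surface and was the effector with the highest median count per kilobase of exon, had 249.5, 472, 154 and 311 normalized counts in DMC, 451, 598, 291 and 567 in MC, 320.1, 374, 373 and 369.8 in DC, and 65.4, 269, 571 and 133 in WT libraries. WT-3 reached the MC range and the DC libraries lay inside it, with a log2 difference of 1.26 ± 0.49 between MC and WT (SE; limma adjusted p = 0.294). Samd9l, a growth-restraining antiviral protein, had 785, 1314, 477 and 787 in DMC, 1092, 975, 999.6 and 1465 in MC, 911, 869, 969.7 and 672 in DC, and 446, 915, 1644 and 585 in WT libraries. Its MC libraries lay just above all DC libraries and overlapped DMC and WT.

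**Figure D5:**
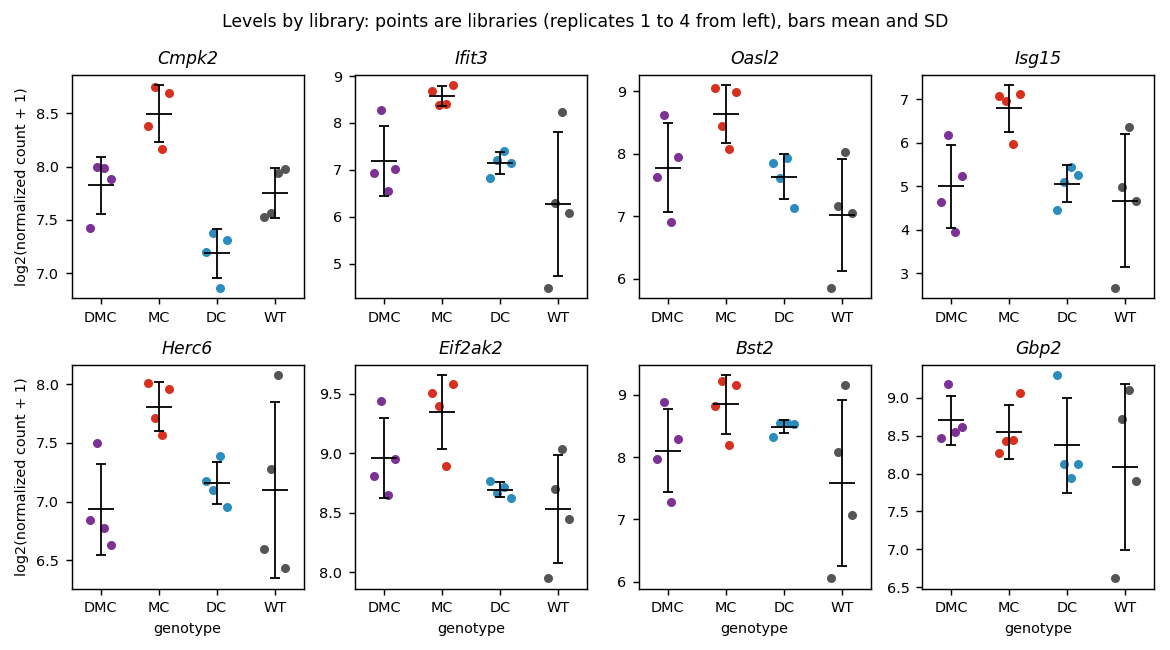
Points give log2(normalized count + 1) of 8 members in each library by genotype, with the mean and SD of 4 as bars. Cmpk2 has MC above and DC below every other group, Ifit3 has MC above all others, and Gbp2 shows no genotype apart.

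The interferon-inducible GTPases attack vacuoles of intracellular pathogens and respond strongly to interferon gamma. Between MC and WT and between MC and DC they had smaller medians than the antiviral effectors. Of 6 members, 1 had an unadjusted p under 0.05 between MC and WT, higher in MC (7.51% of all genes), with a median of 0.46, and the median between MC and DC was 0.15. Gbp2 had 352, 580.5, 375 and 390.2 normalized counts in DMC, 308, 343, 347 and 535 in MC, 629.8, 279, 244 and 278 in DC, and 97.2, 421, 547 and 238 in WT libraries. DC-1 was the highest of all 16 for Gbp2, which was the 1 member above 0 between DMC and MC (0.15 ± 0.42 SE, limma adjusted p = 0.993). Irgm1, a regulator of the other GTPases and of autophagy, had 306, 593, 273 and 331 in DMC, 506, 573, 366 and 638 in MC, 414, 409.8, 379 and 353 in DC, and 205, 478, 949.7 and 199.8 in WT libraries. The 6 GTPases had a mean level of 0.62 in DC-1 and 1.31 in WT-3 on the same centred log2 scale as the member level. The guanylate-binding and Irgm families hold close copies, and Igtp overlaps Irgm2, so their counts are uncertain where reads could be split.

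Among the remaining induced genes, Ifi44, a cytoplasmic protein of the type I response, had 80.1, 353, 48.3 and 101 normalized counts in DMC, 329.6, 305, 161 and 333 in MC, 105, 171, 196 and 127 in DC, and 8.84, 94.0, 278 and 54.9 in WT libraries. Its WT libraries ran over 31.5-fold, and the log2 difference of 2.14 ± 0.76 between MC and WT did not pass (SE; limma adjusted p = 0.242). Ifi27, a small mitochondrial and nuclear envelope protein, was the most abundant member per kilobase of exon, with 2280.4, 2732, 1858 and 3009.98 normalized counts in DMC, 2989, 3778, 1403 and 2858 in MC, 1134, 2458, 1805 and 3084 in DC, and 1278, 1815, 3742 and 1662 in WT libraries. Lgals3bp, a secreted partner of galectin-3, had 921, 2154, 610.04 and 1648 in DMC, 2223, 2656, 722 and 1896 in MC, 829, 1088, 1490.4 and 1239 in DC, and 341, 865, 1922 and 730.2 in WT libraries. MC-3 was the lowest MC library for all 3 genes. Per kilobase of exon the median level over 16 libraries was 1615 normalized counts for Ifi27, 409 for Lgals3bp and 382 for Bst2, and 4.45 for Oas3 at the low end.

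The interferon receptors and their kinases did not pass the test in any of the 6 comparisons. None of 11 interferon genes looked for was in the table, and they were not analysed here. Of 9 receptor and kinase genes 0 passed, with a median of -0.03 between MC and WT; Jak1, the kinase shared by all interferon receptors, had 2507 ± 342 normalized counts in DMC, 2418 ± 176 in MC, 2470.0 ± 137 in DC and 2988 ± 312 in WT libraries (SD, n = 4 each). Stat3, which carries signals of other cytokines as well, averaged 1418 ± 199.6 in DMC, 1520.0 ± 189 in MC, 1454 ± 157 in DC and 1400.0 ± 241 in WT libraries.

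Upstream, 0 of 13 tested genes of nucleic acid sensing and 0 of 7 of nucleic acid clearance passed in any comparison, with medians of 0.25 and -0.04 between MC and WT. Unc93b1, which escorts endosomal Toll-like receptors, averaged 629.8 ± 90.5 normalized counts in DMC, 547 ± 92.2 in MC, 652 ± 194 in DC and 618 ± 336 in WT libraries (SD, n = 4 each). Adar, which edits double-stranded RNA and has an interferon-induced form, averaged 631 ± 216 in DMC, 837 ± 144 in MC, 693 ± 135 in DC and 692 ± 369 in WT libraries.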

How the data were processed

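Per the labels' protocols, total RNA of whole pancreas went into TruSeq Stranded libraries. The submitters' processing notes name STAR 2.6.0b, DESeq2 and GRCm38. For the read counter and strand setting, the sources used here give nothing. The deposited signal is a normalized count per gene, by its values a read count divided by 1 factor per library (0.566 to 1.63): 100% of values came out as whole reads within 0.01, so reads were recovered; 0 columns were left unused. Libraries within a group differed beyond sampling noise, with chi-square over degrees of freedom at 8.63 to 132.55.

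With a pseudocount of 1, log2 values went into limma 3.58.1 (trend option, R 4.3.3) for all 16 libraries, with genotype as the only term. Genes at 10 or more in at least 4 libraries were kept (14220). P-values were adjusted over all genes by Benjamini-Hochberg within each of 6 comparisons and the interaction, with a threshold of 0.05. Exact permutation tests used all 70 assignments. On recovered reads, edgeR 4.0.16 called 72 genes higher and 30 lower in DMC against WT, 69 and 42 in MC against WT, 37 and 34 in DMC against DC, 80 and 99 in MC against DC, 3 and 0 between DC and WT, and 1 and 0 between DMC and MC. It and DESeq2 1.42.0 were alternatives, as were other pseudocounts, filters, scaling, weights, covariates and libraries left out. Values are given for the 2 most abundant members of each role, the 3 with the smallest p in each of 4 comparisons, any past the threshold, and those in which 1 library held over 50% of its group's counts; other members named were chosen after their values were seen. Gene positions are from GENCODE M21 and promoters from RefSeq. The members and lists were chosen with earlier results of these data known.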

Additional observations from a re-analysis of the deposited data

Results flagged for a closer look

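In a group of 4 libraries, the gap between an extreme library and its neighbour was set against the whole range of the group, both on the log2 scale. This was done for 19 named members and the member level, 80 groups in all. Of these 6 were flagged, where chance gives about 1 in 20, and members measured in the same libraries are not independent. DC-4 was low for Ifih1, at 375.3 normalized counts, with a gap of 0.881 of the range, though that range was narrow. DMC-2 was high for Stat2, at 650.2, with a gap of 0.836. MC-3 was low for Isg15, at 61.65, with a gap of 0.861, and for Ifi44, at 160.7, with a gap of 0.878. DC-1 was low for Bst2, at 320.1, with a gap of 0.925, and high for Gbp2, at 629.8, with a gap of 0.859.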

How the results depend on the processing

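The counts of members past the threshold and the medians were recomputed under 31 alternatives. Between MC and WT, where no member passed, DESeq2 gave 4, library quality weights 3, the clock level as covariate 3, the Y-linked level 1 and the lymphoid level 14. Without WT-2 and WT-3, the WT libraries with the highest member levels, 17 passed, with a median of 1.63. Without WT-1 and WT-3, a choice made after seeing the data, 1 passed. Genes called higher and lower in all were 243 and 148 by DESeq2, 175 and 90 with weights, 28 and 16 with the clock level, 84 and 44 with the Y-linked level, and 105 and 53 with the lymphoid level, against 69 and 42. Between MC and DC, where 1 passed, DESeq2 gave 3, the 2 groups alone 6, weights 4, the lymphoid level 3, the clock level 0 with a median of 1.58, and leaving out WT-1 and WT-3 gave 2. All genes called higher and lower there were 243 and 257 by DESeq2, 142 and 126 with the groups alone, 509 and 524 with weights, 104 and 129 with the lymphoid level, and 1 and 3 with the clock level, against 84 and 111. Between DMC and DC DESeq2 called 1, among 186 genes higher and 159 lower. The median there was -0.0797 with weights and -0.0479 with the lymphoid level, while with the clock level it was 0.607, with all 41 above 0. Between DMC and MC the clock level gave -1.05, with 35 members and 844 of all 14220 genes at an unadjusted p under 0.05. Between DC and WT the median was -0.0308 with edgeR, -0.00363 with DESeq2, -0.51 with the clock level and 0.548 with the lymphoid level; without WT-2 and WT-3 it was 1.03 and 2 passed. Between DMC and WT it was -0.0232 with weights, 0.445 with the lymphoid level, with all 41 above 0, and 0.967 without WT-2 and WT-3. Leaving out each library in turn gave 0 to 5 calls between MC and WT and no other change in a count. Medians then ran from -0.15 to 0.598 between DMC and WT, 0.446 to 1.18 between MC and WT, -0.108 to 0.633 between DC and WT, -0.828 to -0.465 between DMC and MC, -0.349 to 0.143 between DMC and DC, and 0.513 to 0.803 between MC and DC. Among single members, Ifi44 between DC and WT was -0.126 with the clock level (adjusted p = 0.991, within 0.116 to 0.991 over its alternatives). The cause of these changes was not tested.

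Equal replicate numbers did not pair the libraries: the correlation of their deviations exceeded 0.1 in 11 of 24 pairs (-0.371 to 0.384), and 1 of 16 libraries correlated best with its own number. With the replicate number as a block, 1 member passed between MC and DC and 0 in the other comparisons. The interaction has no fit within the groups compared alone. Depth limits the low members, such as Isg15 with 3 reads in WT-1.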

Other observations

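Other interferon-stimulated genes, which were not among the members, were tested in the same fit. Of 33 tested, 0 passed in any comparison, 26 were above 0 between MC and WT with a median of 0.47, 29 were below 0 between DMC and MC with a median of -0.38, and 27 were above 0 between MC and DC with a median of 0.36. Between DMC and DC 20 were below 0, with a median of -0.06, where the median of the members was 0.02. Slfn5, a Schlafen family protein, averaged 778 ± 224 normalized counts in DMC, 979 ± 171 in MC, 804 ± 199 in DC and 605 ± 161 in WT libraries (SD, n = 4 each). Slfn9 averaged 788 ± 326 in DMC, 832 ± 224 in MC, 440.3 ± 89.6 in DC and 576 ± 80.3 in WT libraries.

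Genes typical of interferon gamma had their highest median difference from WT in DC. Of 11 tested, 0 passed in any comparison, 10 were above 0 between DC and WT with a median of 0.48, and 10 were below 0 between MC and DC with a median of -0.22. Their counts summed to 845 to 1981 in DMC libraries, 1102 to 1592 in MC, 1248 to 2467 in DC and 389 to 4468 in WT, with the lowest sum in WT-1. The mean log2 level of the 12 in the table was 6.81, 5.77, 6.06 and 5.59 in DC replicates 1 to 4. In WT it was 3.36, 6.32, 7.54 and 4.65, with the lowest of all libraries in WT-1 and the highest in WT-3. Whether the difference between DC and WT holds without either library was not tested. Ciita, the master regulator of MHC class II genes, averaged 355 ± 131 in DMC, 338 ± 25.4 in MC, 423 ± 177 in DC and 537 ± 482 in WT libraries (SD, n = 4 each), and its WT range was 131 to 1203. Gbp9 averaged 283 ± 102 in DMC, 303 ± 46.8 in MC, 313 ± 89.9 in DC and 340.2 ± 269.7 in WT libraries. T and NK cells are known sources of interferon gamma, and their summed markers ran over 101 to 2688 in the same WT libraries, and their part was not tested.

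Of 8 conventional dendritic cell markers 5 were below 0 between MC and WT (median -0.49) and 4 between MC and DC (median 0.08), and 1 passed in each, where 0.781% and 1.37% of all genes were called. Zbtb46 fell in MC against WT (log2 difference -0.64, limma adjusted p = 0.0309) and Cd209a fell in MC against DC (-2.85, adjusted p = 0.00591). Zbtb46 averaged 250.1 ± 37.1 normalized counts in MC and 390.1 ± 48.7 in WT libraries, and Cd209a 14.1 ± 8.06 in MC and 99.2 ± 33.3 in DC libraries (SD, n = 4 each).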
